A study of Homo sapiens with 18 samples.

Results

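Small nucleolar RNAs (snoRNAs) and small Cajal body RNAs (scaRNAs) were examined in 3′ mRNA sequencing (QuantSeq, which primes on poly(A) and reads transcript ends) of RKO-iCas9 cells. The members were all symbols that start with SNORD, SNORA or SCARNA and that had at least 50 reads summed over the 18 libraries of the series. This rule took 95 of the 314 listed symbols with these names, and 39859 symbols were listed in all. Of the members, 51 were box C/D snoRNAs (SNORD), 37 were H/ACA snoRNAs (SNORA) and 7 were scaRNAs (SCARNA). The members just inside the threshold were SNORD2 with 50 reads, SNORD19C with 55 and SCARNA6 with 57. Just outside it lay SNORD138 and SCARNA1 with 49 reads each and SCARNA2 with 47.

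The RKO line derives from a human colon carcinoma, and in its clonal derivative RKO-iCas9 doxycycline (dox) switches on Cas9. Bulk-sorted cells expressed the sgRNA sgERH, which targets the gene of a small conserved protein that binds RNA-processing complexes, or the control sgRNA sgAAVS1, which targets a safe-harbour site. All groups received 100 ng/mL dox for 5 days, followed by 4 h without treatment (NT), with IFNγ at 25 ng/mL or with IL-1β at 10 ng/mL. Of the 3 biological replicates in each of the 6 groups, 15 libraries were compared, since the study had dropped replicate 1 of sgAAVS1_NT, replicate 3 of sgAAVS1_IL-1β and replicate 2 of sgERH_IFNγ as outliers, so that sgAAVS1_NT, sgAAVS1_IL-1β and sgERH_IFNγ held 2 libraries and the other groups 3.

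Box C/D snoRNAs guide 2′-O-methylation and H/ACA snoRNAs guide pseudouridylation of ribosomal RNA, each inside a protein particle built around fibrillarin or dyskerin, while scaRNAs guide the same changes on spliceosomal RNAs in Cajal bodies. Most human snoRNAs lie in introns of host genes, often genes for ribosomal proteins, and are released from the excised intron by trimming from both ends. The mature RNAs carry no poly(A) tail, and such counts do not tell a mature RNA from a polyadenylated precursor or from host transcript reads in its window.

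The 15 libraries held 4987127 to 5986338 counts, and the 3 dropped libraries 3811492, 4293010 and 11821239. ERH itself ranged from 515 to 592 CPM (counts per 1000000 total counts of the library) over 7 sgAAVS1 libraries and from 257 to 355 CPM over 8 sgERH libraries, without overlap. Among the dropped libraries, the one labelled sgAAVS1_NT replicate 1 was lower still, at 52.7 CPM. Of 10 epithelial or colon markers, EPCAM, KRT8, KRT18 and CDX2 had reads in all 18 libraries, while KRT19, KRT20 and CDX1 were at 0. Of 6 leukocyte markers, PTPRC and LYZ were at 0 and CD68 stood at 390 to 634 CPM. The labels call the replicates biological and do not say whether they came from separate cultures, so the p-values measure the spread between these libraries.

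The tables held the snoRNAs of 1 strand almost exclusively. Of the snoRNA and scaRNA symbols with 1 locus in GENCODE 44, the tables listed 296 of 297 on the + strand of GRCh38 and 1 of 150 on the − strand. Small nuclear RNAs showed the same gap, with 98.9% listed on the + strand and 1.11% on the − strand, as did long non-coding RNAs (21.5% and 1.67%). Protein-coding genes were listed at 93.4% on either strand. The minus-strand snoRNAs were therefore not analysed here, and the members are the plus-strand complement together with SNORD3C, the 1 minus-strand member. Of the 95 members, 88 had 1 annotated locus, 6 had several and SNORA109 had none. A same-strand host gene contained 83 of them, in 49 hosts, and 27 members lay in 14 ribosomal protein genes. All of these sat in introns of the host's canonical transcript except SNORA50C, which lay in an exon of the non-coding host SNHG25.

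The sequences below show members that share a host, as GRCh38 carries them at their GENCODE 44 positions. In the box C/D RNAs the capitals mark a box C match (TGATGA within the first 25 bases) and a box D match (CTGA within the last 15), and in the H/ACA RNAs they mark the ACA within the last 8 bases.

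SNORD101 and SNORA33 are shown because they share the host RPS12, which encodes a protein of the small ribosomal subunit, and were called in opposite directions. They lie on the + strand at chr6:132815307-132815379 in intron 3 and at chr6:132817219-132817348 in intron 5. SNORD101 passed the filter on low counts in the sgERH libraries alone.
SNORD101: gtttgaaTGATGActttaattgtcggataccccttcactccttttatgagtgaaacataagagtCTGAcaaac
SNORA33: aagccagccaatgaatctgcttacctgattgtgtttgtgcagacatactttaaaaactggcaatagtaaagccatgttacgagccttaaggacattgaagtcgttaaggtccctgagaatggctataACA

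SNORD104 and SNORA50C are shown because they share SNHG25 and were among the few members without overlap between the guides. They lie on the + strand at chr17:64146083-64146152 and chr17:64146339-64146471.
SNORD104: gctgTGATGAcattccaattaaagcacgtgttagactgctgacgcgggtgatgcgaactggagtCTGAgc
SNORA50C: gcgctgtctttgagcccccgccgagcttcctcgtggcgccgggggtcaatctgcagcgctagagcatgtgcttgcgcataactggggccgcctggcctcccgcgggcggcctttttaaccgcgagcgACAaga
Both box C/D sequences shown held both boxes, whatever their values below. Searched on the RNA's own strand, the exact TGATGA was present in 27 of the 48 box C/D members with 1 locus and in 0 of the 33 such H/ACA members, and CTGA in 40 and 1. The ACA was present in 31 of the 33 H/ACA members and in 4 of the 48 box C/D members. Of the 7 scaRNAs, 3 held TGATGA, 4 held CTGA and 3 held the ACA, as RNAs of either or both box types.

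The 95 members took 227922 reads over the 18 libraries, 0.228% of all reads. Box C/D RNAs held 147058 of them, H/ACA RNAs 66879 and scaRNAs 13985. Few RNAs carried most of this signal, with 12.7% in the top member, 47.9% in the top 5 and 73.5% in the top 10. By reads, the leading box C/D members were SNORD3A (U3, which acts in ribosomal RNA cleavage rather than methylation), SNORD104, SNORD38A, SNORD3B-1 and SNORD36C. The leading H/ACA members were SNORA50C, SNORA52, SNORA66, SNORA81 and SNORA26. Among scaRNAs SCARNA22 alone took 86.3% of the reads, followed by SCARNA9, SCARNA16, SCARNA21 and SCARNA5.

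Pooled over members, the share of reads that mapped to more than 1 place differed between the 3 classes. It was 30.8% over all members, 41.0% in box C/D RNAs, 14.6% in H/ACA RNAs and 0.0858% in scaRNAs, against 21.6% over all genes. Without the SNORD3 copies the box C/D share was 17.5%. The share of the median member was low in each class, at 0.38% in box C/D RNAs, 0.08% in H/ACA RNAs and 0% in scaRNAs. The share was uneven among members: 44 had no multimapping read, 72 were under 5% and 11 were over 50%. The highest values were 95.6% in SNORA10B and SNORD35A, 93.8% in SNORD3B-1, 88.4% in SNORD32A, 88.2% in SNORD3C and 87.5% in SNORD3A. Reads of these members cannot be assigned to 1 locus, and their counts are uncertain.

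**Figure D1:**
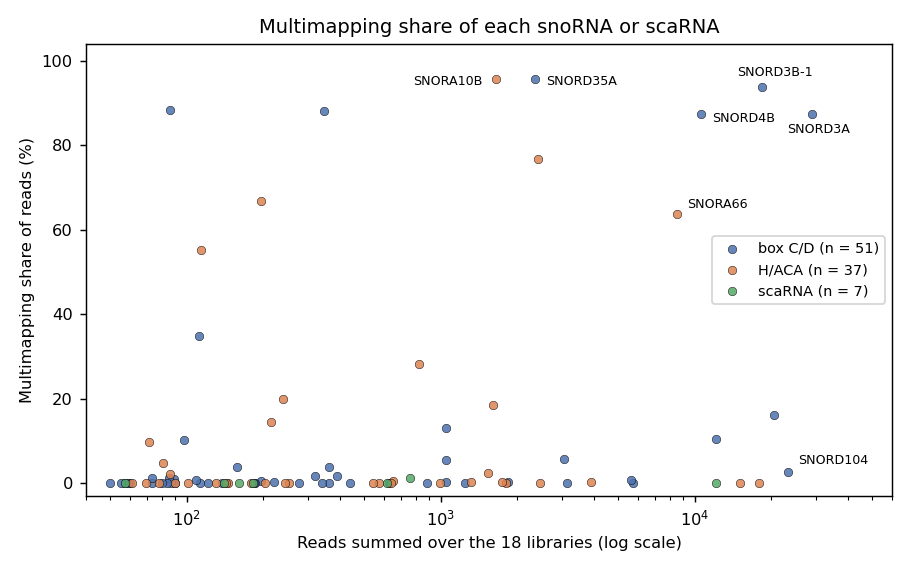
Multimapping share of reads (percent) against reads summed over the 18 libraries (log scale), 1 point for each of the 95 members, coloured by class. The scaRNAs all lie near 0, while 6 box C/D and 5 H/ACA members lie above 50%, among them the abundant SNORD3A (87.5%) and SNORD3B-1 (93.8%).

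Relative to total counts, the summed level of box C/D RNAs was on average higher in sgERH cells, and that of H/ACA RNAs differed less. The box C/D difference lay in 3 members, SNORD3A, SNORD3B-1 and SNORD104, chosen after their values were seen, without which the ratio of means was 0.99. Summed box C/D CPM ranged from 1233 to 1554 in the 7 sgAAVS1 libraries (median 1356) and from 1431 to 2083 in the 8 sgERH libraries (median 1743). The groups overlapped, and the ratio of means was 1.28. Summed H/ACA CPM ranged from 614 to 685 against 665 to 869, with a ratio of 1.11. Summed scaRNA CPM ranged from 117 to 171 against 99.1 to 236, with a ratio of 1.00. No test was made on these sums, since the members were chosen with results known. The trimmed-mean (TMM) factors, which scale libraries to their bulk of genes, were 0.916 to 0.967 in sgAAVS1 and 1.02 to 1.08 in sgERH, and with them the ratios became 1.15, 1.00 and 0.90. Single members moved the sums too: without SNORA50C the H/ACA ratio was 0.95, and without SCARNA22 the scaRNA ratio was 2.02. The sgERH_IL-1β replicate 2 held the highest sum of all members among the 15 libraries (3188 CPM) and the highest multimapping share over all genes (23.2%), and without it the 3 ratios were 1.24, 1.08 and 0.90.

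**Figure D2:**
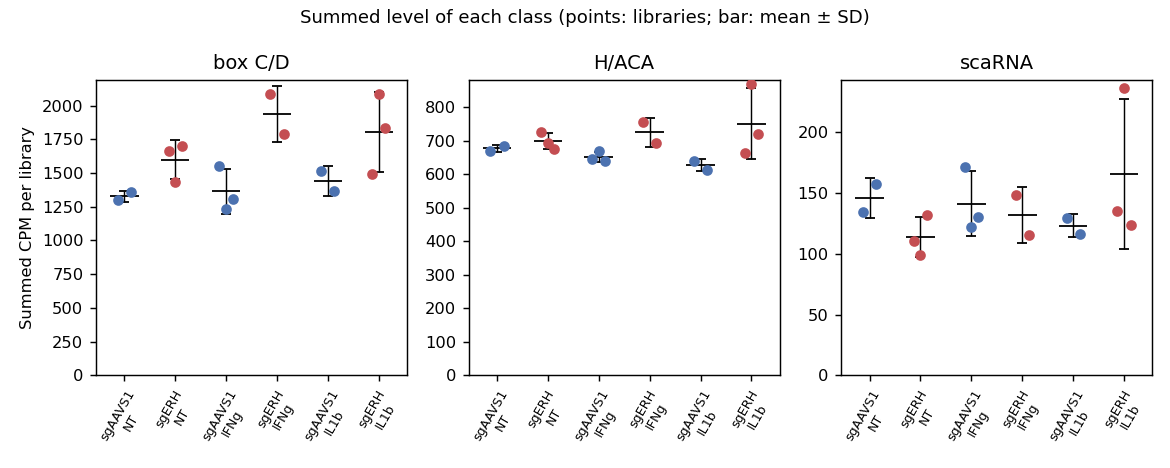
Summed CPM of each class in the 15 libraries compared (IFNg and IL1b stand for IFNγ and IL-1β; blue sgAAVS1, red sgERH), with the mean and SD of each group of 2 or 3. Box C/D sums reached 2083 CPM in sgERH against 1554 CPM in sgAAVS1, H/ACA sums differed less, and scaRNA sums overlapped, with 1 sgERH_IL1b library at 236 CPM.

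For single RNAs, the comparison of sgERH with sgAAVS1 averaged over treatments asks which members changed with ERH targeting. Counts were fitted over all genes with edgeR's quasi-likelihood test, and members whose Benjamini-Hochberg adjusted p was 0.05 or less and whose log2 fold change was 1 or more in either direction were called, which is what rose and fell mean here. Of the 95 members, 70 passed the filter on low counts. Of these 11 rose and 3 fell, which is 20% of those tested, where 8.89% of all 13370 genes tested were called (6.75% higher and 2.14% lower). Most of these calls concern RNAs with few reads, and the count rests largely on the filter: 9 of the 11 that rose passed the filter in the sgERH libraries alone, a route on which 49.5% of all genes were called, and 2 of the 3 that fell (SNORA73B and SNORA41) passed it in the sgAAVS1 libraries alone, where 24.5% of all genes were called. Passing in 1 guide alone selects for a difference between the guides, so such a call is a description and not support. Among the 57 members above the filter's CPM cutoff in 2 libraries of each guide, 2 rose (SNORD12 and SNORA48) and 1 fell (SNORA33), where 6.27% of the 12401 such genes were called. The median log2 fold change over the 70 members was -0.05, beside 0.04 over all genes.

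By class, 6 of the 35 tested box C/D RNAs rose and none fell, 3 of the 29 H/ACA RNAs rose and 3 fell, and 2 of the 6 scaRNAs rose and none fell. Of these, 5 of the box C/D, 2 of the H/ACA and both scaRNA members that rose, and 2 of the H/ACA members that fell, had passed the filter in 1 guide alone, so no class contrast is read from the counts. Above the cutoff in both guides, 1 of 28 box C/D RNAs rose, 1 of 25 H/ACA RNAs rose and 1 fell, and 0 of 4 scaRNAs were called. Without the fold threshold, 7 box C/D RNAs were higher and 4 lower, 5 H/ACA RNAs were higher and 10 lower, and 4 scaRNAs were higher and none lower, at adjusted p alone (25.5% of all genes were higher and 23.2% lower). The abundant members of each class mostly differed by less than 2-fold. The 5 leading box C/D RNAs had log2 fold changes of 0.51 in SNORD3A, 0.98 in SNORD104, -0.37 in SNORD38A, 0.62 in SNORD3B-1 and -0.27 in SNORD36C. The 5 leading H/ACA RNAs had 0.69 in SNORA50C, -0.58 in SNORA52, -0.20 in SNORA66, 0.47 in SNORA81 and -0.05 in SNORA26. In 4 of the 5 leading scaRNAs they were -0.32 in SCARNA22, 0.50 in SCARNA9, 0.65 in SCARNA16 and 0.60 in SCARNA5.

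SNORD46, a box C/D RNA, had few or no reads in each sgAAVS1 library and more in every sgERH library. It had 3 and 5 reads in sgAAVS1_NT, 5, 1 and 0 in sgAAVS1_IFNγ, and 1 and 5 in sgAAVS1_IL-1β. In sgERH it had 76, 36 and 45 reads in NT, 72 and 61 with IFNγ, and 55, 102 and 58 with IL-1β. The groups did not overlap, and all sgERH libraries lay above all sgAAVS1 libraries for 13.2% of all genes tested. It was above the filter's cutoff in 0 sgAAVS1 and all 8 sgERH libraries and so entered the test only through the guide in which it was high. Its log2 fold change was 4.25 ± 0.35 (SE), and pooled CPM was 22.1-fold higher (95% exact binomial interval 14.1 to 36.5, counting error only). It rose in NT (3.51 ± 0.60), with IFNγ (4.85 ± 0.59) and with IL-1β (4.37 ± 0.61). Over 22 alternative settings its log2 fold change stayed between 4.00 and 4.85, called in each. These calls describe the same selected values and add no support.

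Of the members in RPS12, SNORA33 fell, while SNORD101 rose after it had passed the filter in the sgERH libraries alone. SNORA33, an H/ACA RNA, had 35 and 31 reads in sgAAVS1_NT, 59, 51 and 44 with IFNγ and 35 and 40 with IL-1β. In sgERH it had 12, 14 and 17 reads in NT, 16 and 14 with IFNγ, and 46, 26 and 17 with IL-1β. The sgERH libraries lay lower in NT and with IFNγ and overlapped with IL-1β, and on average it fell by 1.25 on the log2 scale (SE 0.21, adjusted p = 1.97e-05 by edgeR). The box C/D RNA SNORD101 of the same host rose by 1.63 ± 0.44, from 1 to 6 reads per sgAAVS1 library to 2 to 19 per sgERH library. It was above the filter's cutoff in 0 sgAAVS1 and 5 sgERH libraries and was tested only through them, while SNORA33 passed in both guides. RPS12 itself had a log2 fold change of -0.30, and SNORD100 of the same gene was not tested.

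**Figure D3:**
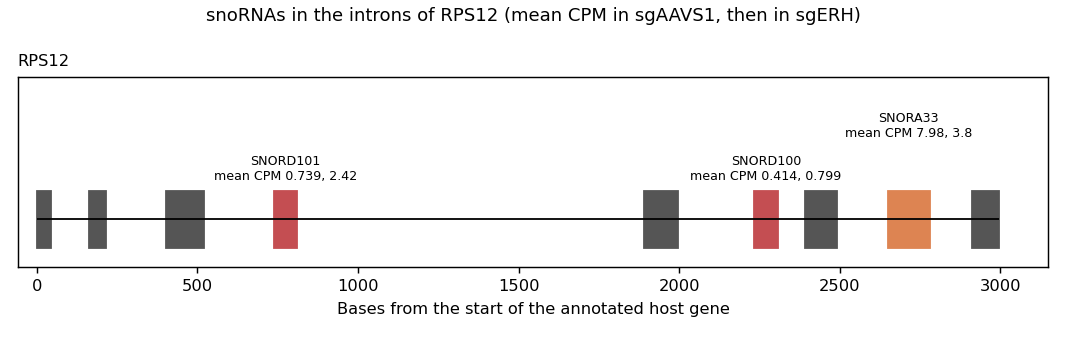
Exons (grey), box C/D snoRNAs (red) and an H/ACA snoRNA (orange) of RPS12, to scale in bases from the start of the annotated host gene, with each snoRNA's mean CPM in the 7 sgAAVS1 and then the 8 sgERH libraries. SNORD101 goes from 0.739 to 2.42 CPM and SNORA33 from 7.98 to 3.8 CPM.

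The other members that rose with few reads in control cells were of all 3 classes, and those named up to SNORD3C had likewise passed the filter in the sgERH libraries alone. SCARNA10, in an intron of the condensin gene NCAPD2, had 10 reads over the sgAAVS1 libraries, 9 of them in NT replicate 2, and 111 over the sgERH libraries. It had 0 reads in the 2 sgAAVS1_IL-1β libraries against 2, 22 and 14 in sgERH_IL-1β, which is at least 8.27-fold higher if the control group is set to a floor of 3 reads in all. In NT it was not called (log2 fold change 1.21 ± 0.87), and NCAPD2 had one of -1.0.

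SNORD21, hosted by the ribosomal protein gene RPL5, had 6 reads over the sgAAVS1 libraries and 62 over the sgERH libraries. Its per-library reads ran from 0 to 3 and from 3 to 13, and its log2 fold change was 3.11 ± 0.63, against -0.23 in RPL5. SNORA74A, in the non-coding host SNHG4, had 0 to 3 reads per sgAAVS1 library and 7 to 15 per sgERH library, with no overlap. Its log2 fold change was 2.76 ± 0.51 against 0.27 in SNHG4. SNORA74D of the same host had -0.11 ± 0.42, and the entries SNORA74B and SNORA74 had -0.22 ± 0.35 and -0.54 ± 0.31, none of them called.

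SNORD42A, in RPL23A, had 0 to 4 reads per sgAAVS1 library and 2 to 19 per sgERH library, and a log2 fold change of 2.38 ± 0.67 that lost its call without sgERH_IFNγ replicate 1 (edgeR adjusted p = 0.0768). Its neighbour SNORD4B in the next intron, an abundant member, had -0.29 ± 0.27, SNORD42B had -0.10 ± 0.35 and RPL23A -0.15. SCARNA21, in the chromatin remodeller gene CHD3, had 1 to 9 reads against 9 to 21 and rose by 1.42 ± 0.36. SNORA38B, in NOL11, had 0 to 5 reads against 1 to 19 and a log2 fold change of 1.42 ± 0.58, and its call was lost under 10 of 19 alternatives.

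SNORD3C, a U3 copy and the minus-strand member, had 2 to 9 reads per sgAAVS1 library and 24 to 60 per sgERH library, with no overlap and a log2 fold change of 2.46 ± 0.31. Since 88.2% of its reads were multimapping, they cannot be assigned to this copy, and with uniquely mapping reads it had too few to test. For the main copies the direction itself depended on such reads. SNORD3A had a log2 fold change of 0.51 with all reads and -0.60 with uniquely mapping reads, and SNORD3B-1 0.62 and -0.98, none of them called. The 3 genes whose log2 CPM over the 15 libraries was most like that of SNORD3A were SNORD3B-1 (Pearson's r 0.98), MIR1248 and SNORA81 (both 0.94), a description over libraries that share depth and scaling. MIR1248 and SNORA81 overlap on the same strand and held 3940 and 3921 reads, largely the same ones.

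SNORD12 and SNORA48 were the members that rose with ample reads in both guides. SNORD12 is hosted by the non-coding RNA ZFAS1 and had 13.1 and 19.9 CPM in sgAAVS1_NT against 103, 46.4 and 79.0 CPM in sgERH_NT. With IFNγ it had 34.5, 23.2 and 46.9 CPM against 168 and 110 CPM, and with IL-1β 64.0 and 78.9 CPM against 68.8, 37.8 and 127 CPM. The guides did not overlap in NT or with IFNγ and overlapped with IL-1β, and the log2 fold changes were 2.01 ± 0.58, 1.85 ± 0.50 and -0.03 ± 0.50. On average it rose by 1.28 ± 0.30 (adjusted p = 0.00626 by edgeR), beside 0.70 in ZFAS1. SNORA48, in the translation factor gene EIF4A1, rose by 1.04 ± 0.25, a call that 5 of the 15 leave-one-out fits lost at log2 fold changes of 0.89 to 0.98.

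Of the members that fell, SNORA73B had the largest change. This H/ACA RNA, U17, which acts in ribosomal RNA processing, lies in an intron of the non-coding SNHG3. It had 10 to 25 reads in each sgAAVS1 library and 1, 2, 2, 3, 3, 3, 6 and 12 reads in the sgERH libraries, the 12 in sgERH_IL-1β replicate 2. Its log2 fold change was -2.16 ± 0.41, and -2.64 without that library. It was above the filter's cutoff in 7 sgAAVS1 libraries and 1 sgERH library, and was thus tested only through the guide in which it was high, as was SNORA41. SNHG3 had -0.87. SNORA41, in EEF1B2, fell by 1.05 ± 0.40 on the log2 scale, but under 12 of 22 alternatives it was not called.

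**Figure D4:**
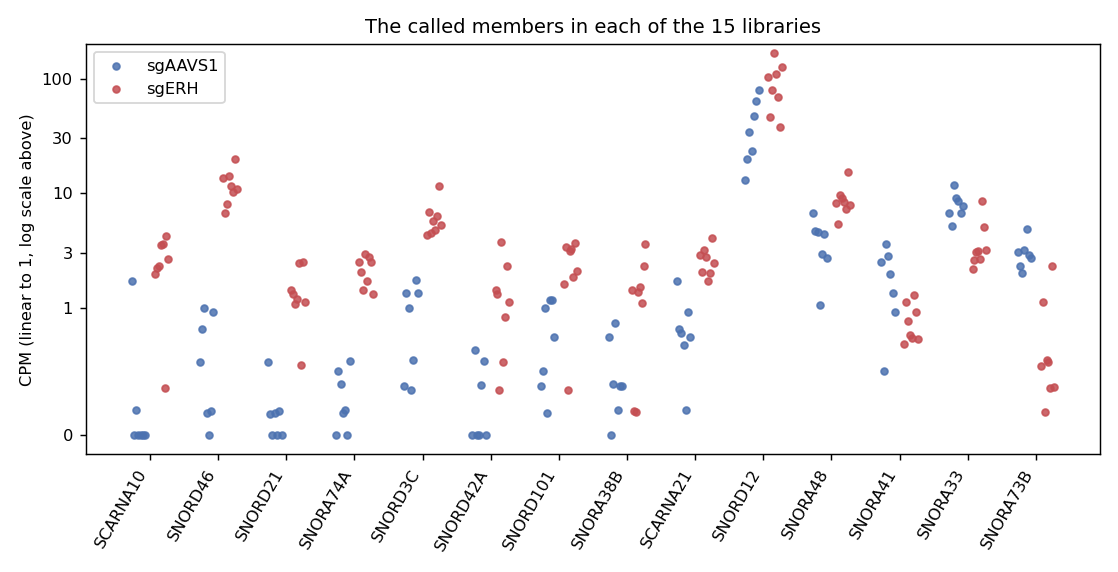
CPM of the 14 called members in each of the 15 libraries (linear below 1 and log scale above; blue sgAAVS1, red sgERH). SNORD46, SNORA74A and SNORD3C show no overlap between guides, SCARNA10 has 1 sgAAVS1 library at 1.73 CPM and the others at or near 0, and SNORA73B, SNORA33 and SNORA41 lie lower in most sgERH libraries.

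The members whose guides did not overlap with ample reads lay in SNHG25 and NOP56. SNORD104 ranged from 129 to 162 CPM over the sgAAVS1 libraries and from 282 to 493 CPM over the sgERH libraries, with a log2 fold change of 0.98 ± 0.09 (adjusted p = 2.54e-08 by edgeR), just under the fold threshold. SNORA50C stood at 111 to 136 CPM against 181 to 341 CPM (0.69 ± 0.09), and SNHG25 itself had 0.85. SNORA50C ends 5 bases from the end of SNHG25, so reads of SNORA50C and SNHG25 cannot be told apart. In the other direction, SNORD57 ranged from 65.1 to 82.7 CPM in sgAAVS1 and from 40.9 to 59.9 CPM in sgERH, a log2 fold change of -0.68 ± 0.09 (adjusted p = 2.79e-07 by edgeR), beside -0.61 in its host NOP56, which encodes a box C/D core protein. In all, 5 of the 70 members tested had every sgERH library above every sgAAVS1 library (13.2% of all genes) and 1 had every one below (5.74%).

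Across hosts, the called members were set beside their host genes, few of which were called. Of the 70 members tested, 60 had a tested host, in 42 host genes. Of these members 10 rose and 3 fell, and none had a host called in the same direction. RABGGTB was the 1 host called of the 42, where 8.89% of all genes were called, and it fell. With so few hosts called, the lack of a matching host call says little about these members. Host log2 fold changes ran from -1.21 to 0.94. The tables count reads in windows of 250 bases for 85 of the 95 members, longer than most of these RNAs. The window was taken to end at the RNA's 3′ end, which the tables do not state. By this, 41 windows held bases of an exon of the host's canonical transcript (host exon bases here) and 42 did not. Exons of other transcripts were not counted, and SNORD21 and SNORD42A, without host exon bases, are among members that overlap such exons. Of the tested members with a tested host, 34 had host exon bases in the window, and 29 of these lay within 0.5 of the host's log2 fold change (median distance 0.19). Of the 26 without such bases, 10 lay within 0.5 (median distance 0.81), and they included 8 of the members that rose and the 3 that fell. All 8 that rose and 2 of the 3 that fell had passed the filter in 1 guide alone, so nothing is read from them. Among members above the cutoff in both guides, 29 of 34 with exon bases (median distance 0.19) and 9 of 15 without (0.27) lay within 0.5 of the host, and 2 and 1 were called. The members without exon bases also had fewer reads, a median of 134.5 against 1052, and the part of depth in this split was not tested.

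**Figure D5:**
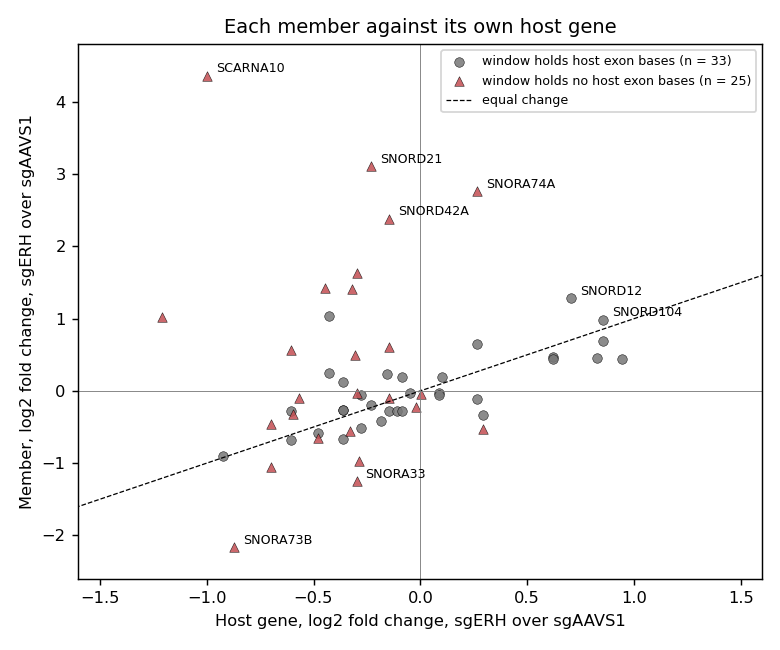
Log2 fold change of sgERH over sgAAVS1, averaged over treatments, of 58 of the 60 tested members against that of their host gene. Circles mark 250-base windows that hold bases of the host's canonical exons (n = 33), and triangles those that hold none (n = 25). Exons of other transcripts were not counted. A dashed line marks equal change. Most circles lie near the line, with SNORA48 the farthest from it, and the triangles SCARNA10, SNORD21, SNORA74A and SNORD42A lie 2.38 to 4.36 above 0 with hosts between -1.0 and 0.27. These named triangles passed the filter in the sgERH libraries alone.

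In the other hosts reported with 3 or more members, the log2 fold changes of the tested members were less spread. SNORD34 and SNORD35A of RPL13A had log2 fold changes of -0.06 and -0.03 beside 0.09 in the host. SNORD36B, SNORD36A and SNORD36C of RPL7A had 0.12, -0.26 and -0.27 beside -0.36. SNORA81 and SNORA4 of EIF4A2 had 0.47 and 0.44 beside 0.62. SNORD2 and SNORA63B of the same host were not tested, and their pooled CPM ratios of sgERH over sgAAVS1 were 20.1 and 1.15. In NOP56, SNORA51 had 0.57 ± 0.33, SNORD56 -0.28 ± 0.23 and SNORD57 -0.68 ± 0.09, none of them called, beside -0.61 in the host. SNORD11B and SNORD11 of NOP58 had 0.19 and -0.28 beside -0.08, SNORD19 and SNORD19B of GNL3 had -0.51 and -0.06 beside -0.28, and SNORD49A and SNORD65 of SNHG29 had -0.52 and -0.34 beside 0.29.

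The 25 members that the filter kept out of the test had 50 to 121 reads each. Their pooled CPM was higher in sgERH for 22 and lower for 3, with a median ratio of 1.59. Of 1079 other untested symbols in the same range of reads, 69.0% were higher in sgERH, with a median ratio of 1.31. The widest contrasts, chosen after their values were seen, were SCARNA6 with 1 read over the sgAAVS1 libraries and 43 over the sgERH libraries (ratio 37.6, 95% interval 6.40 to 1519) and SNORD102 with 5 and 50 (ratio 8.74, 3.51 to 28.1). SNORD2, just inside the threshold, had 2 and 46 (ratio 20.1, 5.26 to 171). Its host EIF4A2 had a log2 fold change of 0.62. These intervals cover counting error only.

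Split by treatment, 4 members rose and 4 fell in NT, where 8.24% of all genes were called (5.95% higher and 2.3% lower). With IFNγ 10 rose and 3 fell, beside 7.61% of all genes (5.24% and 2.37%), and with IL-1β 9 rose and none fell, beside 8.48% (5.68% and 2.8%). Of these, 3 that rose and 1 that fell in NT, 8 and 2 with IFNγ and 5 that rose with IL-1β had passed the filter in 1 guide alone. Of the 57 members above the cutoff in both guides, 4 were called in NT (7.46% of such genes), 3 with IFNγ (6.89%) and 4 with IL-1β (7.68%). SNORD46, SNORD3C and SNORA74A rose in all 3. Besides members named above, SNORA23 (-1.24) and SNORA77B (-2.27) fell in NT, and SCARNA9 (1.18) and SCARNA16 (1.14) rose with IL-1β. Leaving out 1 library moved the NT count from 8 to 4 without sgAAVS1_NT replicate 2. It moved the IFNγ count from 13 to 8, 7 and 6 without sgAAVS1_IFNγ replicate 1, sgAAVS1_IFNγ replicate 2 and sgERH_IFNγ replicate 1. The IL-1β count of 9 became 5 and 4 without sgAAVS1_IL-1β replicates 1 and 2, and 16 without sgERH_IL-1β replicate 3.

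The cytokines themselves changed no member by these criteria. With edgeR, 0 of 70 members were called with IFNγ in sgAAVS1 (0.598% of all genes) or in sgERH (0.015%), with 4 and 6 at an unadjusted p under 0.05. With IL-1β, 0 were called in sgAAVS1 (0.636%) or in sgERH (0.292%), with 7 and 14 at an unadjusted p under 0.05. In sgERH 1 member, SNORA52, was lower with IL-1β at adjusted p alone (log2 fold change -0.51 ± 0.12, edgeR adjusted p = 0.0317). DESeq2 called SNORD12 with IL-1β in sgAAVS1 (log2 fold change 2.06), for which edgeR gave an adjusted p of 0.192, and no member in the other 3. The differences between guides in the IFNγ response (0.202%) and in the IL-1β response (0.0%) were called for 0 members, with 6 and 8 at an unadjusted p under 0.05, and for 0 by DESeq2. In SNORD12 the IL-1β response was 2.06 ± 0.61 in sgAAVS1 and 0.02 ± 0.44 in sgERH, and the test of that difference gave an adjusted p of 0.402 by edgeR.

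The protein partners were tested from lists of genes chosen with earlier results of these data known, and 0 of 44 genes were called in the average comparison, where 8.89% of all genes were. Of the box C/D core proteins, FBL (fibrillarin, the methyltransferase) had a log2 fold change of -0.43 ± 0.07, NOP56 -0.61 ± 0.07, SNU13 -0.24 ± 0.06 and NOP58 -0.08 ± 0.06. The first 3 were lower at adjusted p alone, as were 23.2% of all genes. Of the H/ACA core, DKC1 (dyskerin, the pseudouridine synthase) had -0.30 ± 0.07, NHP2 -0.27 ± 0.09, NOP10 -0.08 ± 0.17 and GAR1 0.09 ± 0.10, and the first 2 were lower at adjusted p alone.

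At adjusted p alone, 1 of 10 particle assembly genes was higher and 4 lower, 1 of 11 Cajal body and transport genes was higher and 5 lower, and 1 of 15 genes of 3′ end processing was higher and 6 lower. By the same rule 25.5% of all genes were higher and 23.2% lower. The medians of the 3 lists were -0.03, -0.24 and -0.18, beside 0.04 over all genes. Of the 3′ end processing genes that were lower, EXOSC3, EXOSC10 and DIS3 belong to the exosome, which trims precursors from the 3′ end. Their log2 fold changes were -0.85 ± 0.11, -0.62 ± 0.12 and -0.22 ± 0.09. The other genes that were lower were PABPN1 (-0.60), MTREX (-0.48) and TOE1 (-0.42). ZCCHC7, of the complex that adds short tails to such precursors, was higher with 0.23 ± 0.09. The deadenylase PARN, which trims H/ACA RNA tails, had 0.10 ± 0.12.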

How the data were processed

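Human RKO-iCas9 libraries (QuantSeq 3′ mRNA) were analysed from the tables deposited for each library. According to the submitters' notes and methods, FastQC 0.11.8 and Trim Galore 0.6.2 were used for quality control and trimming, SlamDunk for mapping to GRCh38 and for counting in the 3′ end windows that 3-GAmES built, and the authors collapsed windows by symbol. The deposited values are raw counts of reads, with a second column for the reads that map to several places. Counting in windows at 3′ ends records ends, not splicing, and no molecular identifiers were stated, so intervals cover counting error only.

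Counts of 15 libraries were fitted in edgeR 4.0.16 (R 4.3.3) as 6 groups with TMM, filterByExpr and the robust quasi-likelihood F test over 13370 genes, adjusted by Benjamini-Hochberg. The 10 comparisons were sgERH against sgAAVS1 (per treatment and averaged), each cytokine in each guide, and the difference between guides in each response. The script was tested on simulated data. Printed CPM use total counts without TMM factors. Members, gene lists and tests were chosen with earlier results of these data known. Named were the 5 members with the most reads in each class, the 12 called members with the largest change on average, those called for a cytokine, those at the threshold of 50 reads and those of hosts with 3 or more members, of which 1 host and its contrasts are not reported here. SNORA41, SNORA48, SNORD57, SNORA73A, SNORA74, SNORA74B, SNORA74D and members called in 1 treatment were named after their values were seen. Hosts were the shortest named same-strand gene of GENCODE 44 containing the member, and sequences were read from GRCh38. Alternatives were DESeq2 1.42.0, other scaling, no filter, all 18 libraries, uniquely mapping reads, a replicate block and leaving out each library.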

Additional observations from a re-analysis of the deposited data

Results flagged for a closer look

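In 2 of the 3 libraries that no comparison used, snoRNA levels were above those of every sgAAVS1 library used. In the library labelled sgAAVS1_NT replicate 1 the summed level of all members was 3101 CPM, against at most 2370 CPM in the sgAAVS1 libraries used. Its box C/D sum was 1911 CPM (at most 1554 CPM in those libraries), its H/ACA sum 809 CPM (at most 685 CPM) and its scaRNA sum 381 CPM (at most 171 CPM). In sgERH_IFNγ replicate 2 all members summed to 3763 CPM, box C/D RNAs to 2477 CPM, H/ACA RNAs to 969 CPM and scaRNAs to 317 CPM. These 2 libraries also had the highest multimapping shares over all genes, 26.3% and 24.01%.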

How the results depend on the processing

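Over 22 alternatives each, the 14 members called on average became 11 to 17 when 1 library was left out and 11 to 18 under the other settings, all within 1.5 times. With all 18 libraries the calls in NT, with IFNγ and with IL-1β were 4, 4 and 4 in place of 8, 13 and 9, and with DESeq2 the IFNγ count was 7. Leaving out 1 library gave 4 to 9 calls in NT, 6 to 15 with IFNγ and 4 to 16 with IL-1β. For IL-1β against NT in sgAAVS1 and in sgERH and for the difference between guides in that response, the count of 0 became 0 to 1 in those fits. It was 1 with DESeq2 in sgAAVS1 (SNORD12), and 1 without the filter in sgAAVS1 and for the difference (SNORD36B in both). For IFNγ against NT in either guide and for the difference in that response it stayed at 0 throughout. With TMM scaling the H/ACA ratio moved from 1.11 to 1.00. Without SNORD3A, SNORD3B-1 and SNORD104, left out after their values were seen, the box C/D ratio moved from 1.28 to 0.99. Without SNORA50C the H/ACA ratio was 0.95, and without SCARNA22 the scaRNA ratio moved from 1.00 to 2.02. Leaving out 1 library gave ratios of 1.24 to 1.31 for box C/D, 1.08 to 1.13 for H/ACA, 0.90 to 1.05 for scaRNA and 1.17 to 1.24 for all members. The multimapping share was 29.6% in the 15 libraries. The causes were not tested. Same-numbered libraries did not deviate together (r -0.06 to 0.14 over 30 pairs, 1 above 0.1), so the numbers were not taken as pairs. With a replicate block the calls were 7 in NT, 12 with IFNγ, 9 with IL-1β and 15 on average, where SNORD104 passed the fold threshold (1.02) and SNORA41 was lost. Members near the filter limit held under 10 reads in many libraries, which limits the precision of their values.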

Other observations

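In the third library left out, sgAAVS1_IL-1β replicate 3, all members summed to 669 CPM and SNORD3A stood at 2.28 CPM, although this library was the deepest with 11821239 counts. SNORD46 had 99 reads in the left-out sgERH_IFNγ replicate 2 and 1 read in this library. It had 0 reads in the left-out library labelled sgAAVS1_NT replicate 1, the library with the lowest ERH of the 18. Among symbols that share a locus with a member, MIR6516 and SCARNA16 held 612 reads each and MIR664B and SNORA36A 81 each, so the listed miRNAs carry the counts of the snoRNA windows.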
